A study of Arabidopsis thaliana with 163 samples.

Results

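JAZ3 (AT3G17860), JAZ4 (AT1G48500), JAZ11 (AT3G43440) and JAZ12 (AT5G20900) are 4 of the 13 JASMONATE ZIM-DOMAIN (JAZ) genes of Arabidopsis thaliana. For each gene, every listed histone domain and every MYC2 peak that overlapped its body or the 2 kb upstream of its start was collected on TAIR10 coordinates. This gave 32 domain rows and 2 MYC2 peaks among the 27432 protein-coding genes of the 5 nuclear chromosomes. JAZ3 had 12 domain rows, JAZ12 had 11, JAZ11 had 8 and JAZ4 had 1.

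The histone profiles came from 10-day-old whole seedlings of the wildtype accession Col-0, and whole seedlings mix all cell types. H3K9ac, an acetyl mark of active promoters, was profiled in untreated seedlings by regular ChIP-seq (2 libraries) and by PHILO ChIP-seq (3 libraries), a low-input protocol for many samples at once, each with a domain list of its own. In untreated seedlings 4 marks were profiled by PHILO ChIP-seq from 3 libraries each, which the methods describe as merged before domain calling: H3K9ac, H3K4me3 (at active promoters), H3K36me3 (along transcribed bodies) and H3K27me3 (the Polycomb mark of repressed genes). For H3K9ac the listed counts of the 3 PHILO libraries did not sum to the merged list, and which libraries it holds was not settled. H3K9ac was also profiled after 2 h of gaseous methyl jasmonate (JA) against untreated seedlings, once in a large-scale experiment and once in a time course, each as 3 merged libraries a side. MYC2 was profiled in 2 untreated and 2 JA-treated libraries, which by the study's methods came from myc2 mutant seedlings carrying MYC2:MYC2-FLAG. The sample labels of these MYC2 libraries instead state Col-0, no treatment and an H3K9ac antibody, and the peak list does not itself state its treatment or control side, so the genotype and contrast of the peaks rest on the methods and the titles. The label of 1 untreated library titled IgG likewise names the H3K9ac antibody, and which IgG libraries served as the control of the enrichments is not stated in the lists.

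JAZ proteins are repressors of jasmonate signalling. In the resting state they bind MYC2 and related bHLH factors and recruit the adaptor NINJA and the corepressor TOPLESS. The bioactive hormone joins a JAZ protein to the F-box receptor COI1, the JAZ protein is degraded, and the released MYC2 activates its targets from G-box elements (CACGTG). Many JAZ genes are themselves MYC2 targets, so new repressor is made as the response starts. JAZ3, also named TIFY6B and JAI3, and JAZ4 (TIFY6A) belong to one branch of the family, and JAZ11 (TIFY3A) and JAZ12 (TIFY3B) form another. JAZ3 is the gene of the jasmonate-insensitive jai3 mutant, and JAZ12 protein is bound by the ubiquitin ligase KEG.

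All 4 genes lie on the plus strand, JAZ3 at chr3:6119707-6123044 with 4 annotated transcripts, JAZ4 at chr1:17931390-17934662 with 3, JAZ11 at chr3:15367546-15370157 with 2 and JAZ12 at chr5:7090704-7092539 with 1. The 250 bases before the annotated start of JAZ3, JAZ11 and JAZ12 (RefSeq, TAIR10.1) are shown to compare the stretch that holds the stronger JAZ3 summit with the same stretch of 2 genes without a MYC2 peak. Capitals mark the G-box CACGTG and its variant CACGTT, which reads AACGTG on the other strand. The windows are chr3:6119457-6119706 for JAZ3, chr3:15367296-15367545 for JAZ11 and chr5:7090454-7090703 for JAZ12.
JAZ3: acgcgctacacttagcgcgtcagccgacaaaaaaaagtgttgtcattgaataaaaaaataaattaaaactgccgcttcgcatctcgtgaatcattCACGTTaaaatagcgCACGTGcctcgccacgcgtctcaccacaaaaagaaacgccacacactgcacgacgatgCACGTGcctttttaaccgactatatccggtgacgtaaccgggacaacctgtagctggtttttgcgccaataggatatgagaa
JAZ11: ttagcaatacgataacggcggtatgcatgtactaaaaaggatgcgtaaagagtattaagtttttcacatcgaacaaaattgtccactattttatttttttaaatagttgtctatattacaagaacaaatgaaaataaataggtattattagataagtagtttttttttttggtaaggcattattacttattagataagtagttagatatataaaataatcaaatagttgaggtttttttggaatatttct
JAZ12: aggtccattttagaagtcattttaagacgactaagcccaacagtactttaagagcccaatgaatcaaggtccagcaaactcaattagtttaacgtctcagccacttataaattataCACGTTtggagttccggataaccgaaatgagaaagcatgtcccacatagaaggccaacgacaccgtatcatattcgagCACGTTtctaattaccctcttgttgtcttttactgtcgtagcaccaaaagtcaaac
JAZ3 held 2 copies of CACGTG and 1 of CACGTT in this stretch. JAZ12 held 2 copies of CACGTT and none of CACGTG, and neither motif was found in the letters of JAZ11. Over 250 bases before to 50 after the start, CACGTG was present in 7.68% and CACGTT in 8.95% of 27431 promoters, counting both strands. In that window 4 of the 9 other JAZ genes held CACGTG and 3 held CACGTT, while all 9 had a MYC2 peak. Extended to 2 kb upstream, CACGTG was found 2 times at JAZ3 and 0 times at JAZ11 and JAZ12, and in 23.8% of all genes. In the same 2 kb it was present in 9 of the 9 other JAZ genes. CACGTT was found 3 times at JAZ3, 3 times at JAZ12 and once at JAZ11, 1878 bp from the start, and in 41.0% of all genes.

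**Figure D1:**
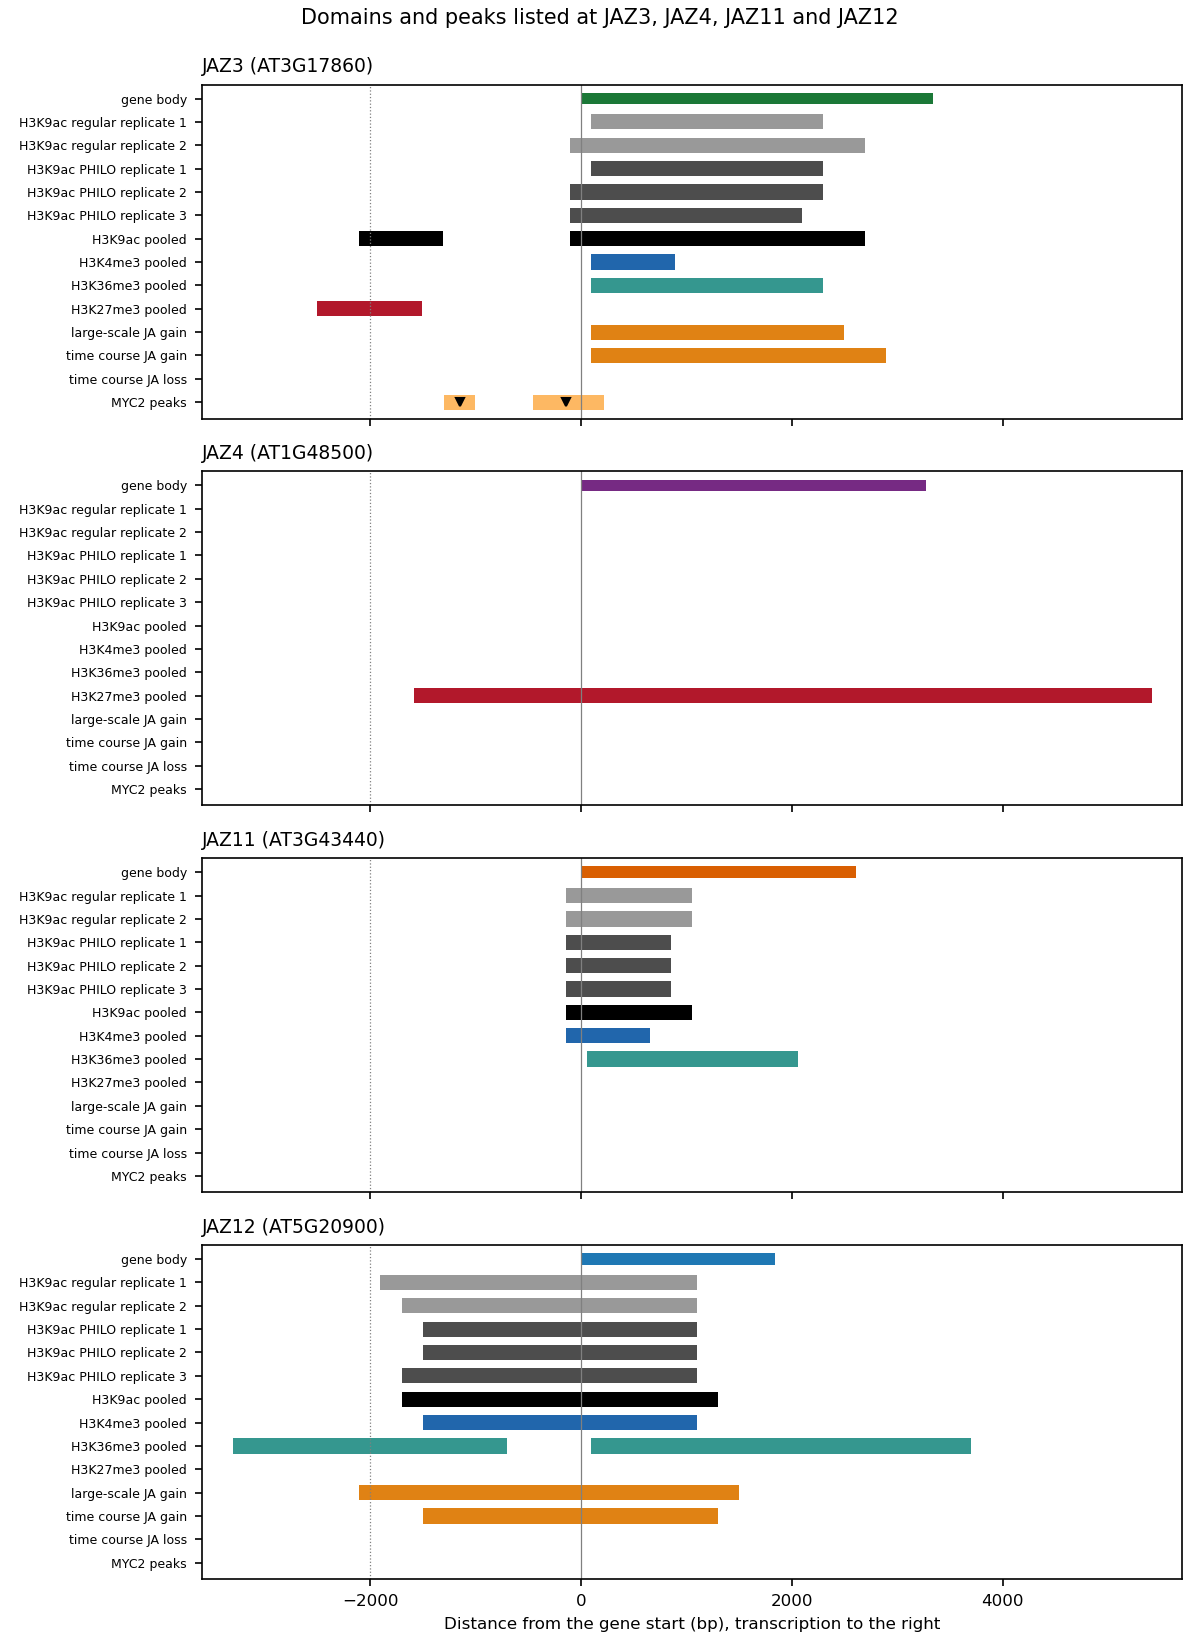
Domains and peaks at the 4 genes, with the distance from the gene start in bp on the x axis and 1 row per list. Bars span the listed domains or MYC2 peaks, triangles mark MYC2 summits, the solid line is the gene start and the dotted line 2000 bp upstream. JAZ3, JAZ11 and JAZ12 carry H3K9ac in all 5 library lists, JAZ4 carries H3K27me3 alone, and the MYC2 peaks are at JAZ3.

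The first comparison asked whether H3K9ac was present at the 4 genes in untreated seedlings and how it varied between libraries and protocols. JAZ3, JAZ11 and JAZ12 had an H3K9ac domain in each of the 5 libraries, and JAZ4 had none in any. A domain in all 5 lists was present at 70.4% of all protein-coding genes, so 3 of 4 is near the share of all genes. By list, 72.6% (regular replicate 1), 72.4% (regular replicate 2), 75.0%, 73.7% and 73.7% (PHILO replicates 1 to 3) of genes had a domain. The nearest H3K9ac domain to JAZ4 ended 2389 bp upstream of its start in every library, 389 bp outside the window, over the start of the divergent neighbour AT1G48490.

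At JAZ3 the log2 enrichment of H3K9ac over the IgG control was 1.33 and 1.15 in the regular libraries and 1.66, 1.64 and 1.52 in the PHILO libraries. All PHILO values lay above both regular values, as they did at 88.3% of the 14040 distinct gene domains found in all 5 lists. The domain was 2200 to 2800 bp wide. In 2 libraries it began 94 bp inside the gene and in 3 libraries 106 bp before the start, and it covered 62.7% to 80.7% of the body. An alternative transcript start is annotated at JAZ3 322 bp into the gene, inside the domain of every library.

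At JAZ11 the log2 enrichment was 1.62 and 1.74 in the regular libraries and 2.43, 2.42 and 2.47 in the PHILO libraries. All PHILO values were again the higher, as at 88.3% of the gene domains. JAZ11 had the narrowest domain of the 3 genes, 1200 bp in both regular libraries and 1000 bp in all PHILO libraries, starting 145 bp before the gene start in each. It covered 40.4% of the body in the regular and 32.7% in the PHILO libraries. The next H3K9ac domain ended at least 12145 bp upstream of the gene start, and the next one downstream began 34443 bp or more past the gene end. Its enrichment was above that of 71.9% and 76.7% of genes with a domain in regular replicates 1 and 2. In PHILO replicates 1 to 3 it was above 90.2%, 82.7% and 84.4%.

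At JAZ12 the log2 enrichment was 1.40 and 1.41 in the regular libraries and 1.98, 2.01 and 1.95 in the PHILO libraries. These groups did not overlap either, as at 88.3% of the gene domains. Its domain was 2600 to 3000 bp wide and ended 1096 bp inside the gene in all 5 libraries. The upstream edge lay 1503 to 1903 bp before the start. JAZ12 is divergent from AT5G20890, a TCP-1/cpn60 chaperonin gene whose start is 534 bp away, and 969 to 1369 bp of the domain covered that gene. The reads of both promoters are therefore counted in 1 domain and cannot be told apart.

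Read density, the count per kb scaled by the ratio of library totals to the IgG total, separated the protocols in the same way. JAZ3 had 191 and 173 reads per kb in the regular and 240, 247 and 226 in the PHILO libraries (181.7 ± 12.6, SD, n = 2, against 237.9 ± 11.1, n = 3). JAZ11 had 230.2 and 249.8 against 377, 375 and 388 reads per kb (239.95 ± 13.9 against 379.8 ± 6.94). JAZ12 had 188 and 186 against 286, 291 and 272 reads per kb (187.0 ± 0.77 against 283.0 ± 9.99). The means in PHILO were 1.31-fold (JAZ3), 1.58-fold (JAZ11) and 1.51-fold (JAZ12) those of the regular libraries. Each density was taken over the domain of its own library, which at JAZ11 was 1200 bp in the regular and 1000 bp in the PHILO libraries. The IgG control over the same domains held 70.0 to 79.6 reads per kb at the 3 genes.

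This shift was shared with the rest of the genome. With library totals as the scale, the median of these gene domains differed by 0.54 on the log2 scale between PHILO and regular libraries. On that scale the log2 differences were 0.39 (JAZ3), 0.66 (JAZ11) and 0.60 (JAZ12), and 83.1% of all domains passed as higher in PHILO, as did these 3 (edgeR adjusted p = 0.011, 0.0035 and 0.0035).

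Relative to the other domains, by the trimmed mean of M-values (TMM), which centres the libraries on the bulk of domains, none of the 3 genes differed between protocols past the threshold, an adjusted p of 0.05 over all 14040 domains. The log2 difference of PHILO minus regular was -0.15 ± 0.10 at JAZ3 (SE, edgeR adjusted p = 0.52), 0.13 ± 0.08 at JAZ11 (edgeR adjusted p = 0.46) and 0.06 ± 0.08 at JAZ12 (edgeR adjusted p = 0.74). Over the genome 63 domains passed (0.449%), of which 22 were higher (0.157% of all) and 41 lower (0.292%) with PHILO. This count fell to 0 without any 1 of the 5 libraries, and DESeq2 called 484 higher and 391 lower, but none of the 3 genes was called in these fits. TMM-scaled, JAZ11 read 518 and 540 reads per kb in the regular and 595, 562 and 578 in the PHILO libraries, with all PHILO values above both regular values, as at 18.1% of all domains. The JAZ11 intervals differed between protocols, 1200 bp against 1000 bp, and what this width adds to the separation was not tested. JAZ3 read 429 and 374 against 379, 371 and 337, and JAZ12 422 and 403 against 451, 437 and 406, and in both genes the groups overlapped. The study calls its H3K9ac replicates biological, while the labels name no separate plantings, so these p-values measure the spread between libraries, which may be technical.

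**Figure D2:**
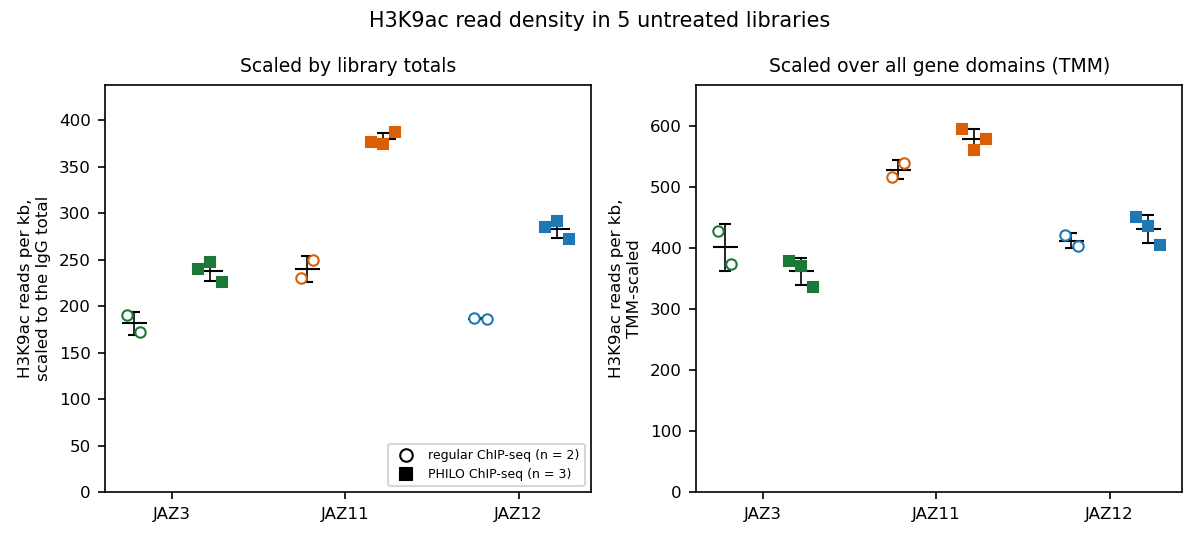
H3K9ac reads per kb (y axis, from 0) of the 3 genes with a domain, in 2 regular (open circles) and 3 PHILO (filled squares) libraries, with library totals as the scale on the left and TMM on the right. Horizontal bars are means and whiskers 1 SD. Scaled by totals, PHILO lies above regular at all 3 genes, and after TMM JAZ11 alone of the 3 keeps groups that do not overlap, with an edgeR adjusted p of 0.46. Its domain was 1200 bp wide in regular and 1000 bp in PHILO libraries.

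The marks of untreated seedlings were then set side by side, as values of 1 pooled list a mark and without a test. Of the 16 combinations of gene and mark, 11 had a domain. Of all protein-coding genes 75.5% had a pooled H3K9ac domain, 72.7% had H3K4me3, 66.8% had H3K36me3 and 42.4% had H3K27me3.

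JAZ11 and JAZ12 carried the active marks H3K9ac, H3K4me3 and H3K36me3 without H3K27me3, the combination of 45.8% of genes. At JAZ11 the log2 enrichment was 1.48 for H3K9ac, 2.77 for H3K4me3 over 800 bp at the start, and 2.04 for H3K36me3, whose domain ran from 55 to 2054 bp inside the gene. At JAZ12 it was 1.32 for H3K9ac and 2.58 for H3K4me3. The H3K4me3 domain of JAZ12 was 2600 bp wide, wider than that of 94.2% of genes with one, and it spanned the shared promoter with AT5G20890. No H3K36me3 domain was listed between the starts of these genes, and the reads there were not analysed. Of the listed domains, 1 (log2 2.26) ended 704 bp before the JAZ12 start over AT5G20890. The other (log2 2.03) began 97 bp inside JAZ12 and ran through AIP2, the convergent neighbour.

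JAZ3 carried all 4 marks within its window, as 16.8% of genes did, but at different places. H3K4me3 (log2 2.47) covered 800 bp from 94 bp inside the gene. H3K36me3 was weak there, with a log2 enrichment of 1.18, and only 8.02% of genes with such a domain had a lower one. Its interval, chr3:6119801-6122000, was the same as that of H3K9ac in 2 of the libraries. H3K27me3 (log2 2.56, higher than at 85.2% of genes with a domain) did not touch the body: it lay at chr3:6117201-6118200, ending 1507 bp before the start, and covered the whole of the noncoding RNA gene AT3G03555. A second pooled H3K9ac domain of low enrichment (log2 0.88, chr3:6117601-6118400) covered 93.9% of the same noncoding gene, and no list of a single library held it.

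JAZ4 carried H3K27me3 alone, as 15.0% of genes did, and among the other JAZ genes only JAZ8 did so. The domain was 7000 bp wide, chr1:17929801-17936800, and held 2144 reads against 511 in IgG. It covered all of the JAZ4 body, including the alternative transcript start 1210 bp into the gene, and 93.4% of AT1G48510, a SURF1-type cytochrome oxidase biogenesis gene 83 bp downstream. Its log2 enrichment of 1.22 was low, above 15.0% of genes with an H3K27me3 domain, while 73.2% of these had a narrower one.

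The other 9 JAZ genes gave the family's range. H3K9ac was listed at 8 of 9, from 0.88 at JAZ10 to 1.77 at JAZ13, H3K4me3 at 6 of 9, from 0.97 at JAZ10 to 3.48 at JAZ2, and H3K36me3 at 4 of 9, from 0.77 at JAZ9 to 1.96 at JAZ13. H3K27me3 was listed at 5 of 9, from 1.05 at JAZ1 to 2.30 at JAZ8. JAZ11 and JAZ12 thus had the highest listed H3K36me3 of the 13 JAZ genes, and JAZ3 the highest H3K27me3, which lay upstream. These orders are not resolved. The 95% counting interval of JAZ11 (1.79 to 2.30) held the H3K36me3 value of JAZ13. The JAZ12 domain also covered 1889 bp of AIP2. For H3K27me3 the interval of JAZ3 (2.17 to 2.96) held the value of JAZ8. All 10 partner genes (COI1, NINJA, TPL, MYC2, MYC3, MYC4, KEG, HDA6, MED25 and HAC1) carried the 3 active marks, and 2 of them, NINJA and MYC2, had H3K27me3 as well.

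**Figure D3:**
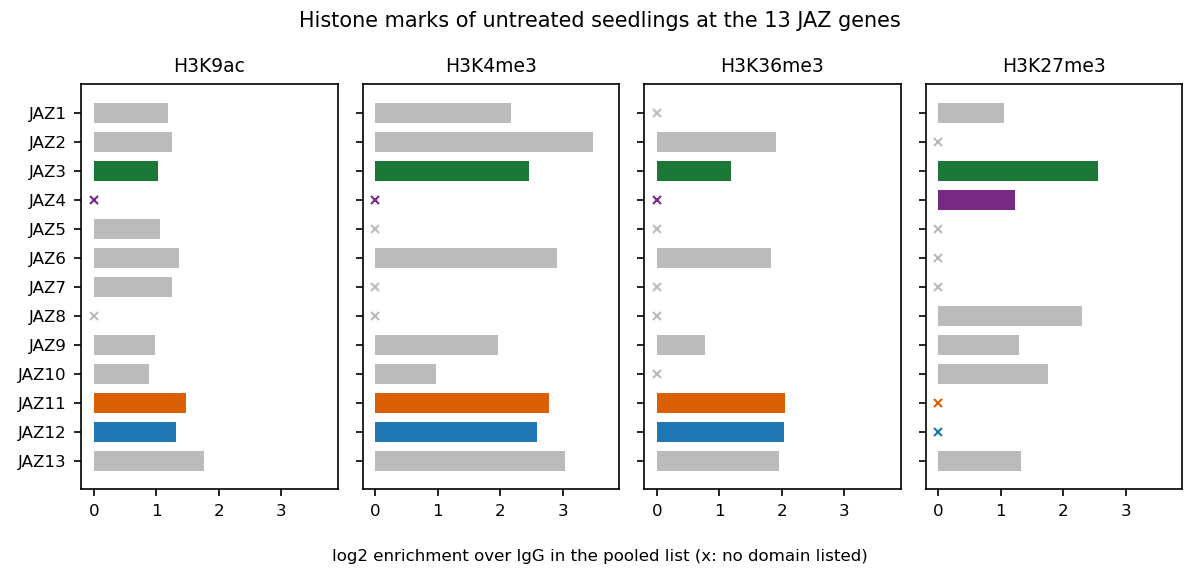
Log2 enrichment over IgG (x axis) of H3K9ac, H3K4me3, H3K36me3 and H3K27me3 at the 13 JAZ genes (y axis) in the pooled lists of untreated seedlings. Coloured bars are JAZ3, JAZ4, JAZ11 and JAZ12, grey bars the other JAZ genes, and a cross stands for no listed domain. JAZ4 has a bar for H3K27me3 alone, and JAZ11 and JAZ12 have none for it.

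The pooled H3K9ac list is filed with the PHILO samples, but at JAZ11 it held 1241 reads over the same 1200 bp interval in which the regular libraries together held 1287. The PHILO libraries together held 1748 reads in a narrower interval of 1000 bp. The pool's total was 4.96 times that of IgG, against summed totals of 4.48 for the regular and 4.61 for the PHILO libraries, and its log2 enrichment at JAZ3, JAZ11 and JAZ12 lay below that of each of the 5 libraries. At JAZ12 the pool held 2487 reads over 3000 bp, against 1458, 1037 and 972 in PHILO and 1328 and 1106 in regular libraries. At JAZ3 it held 2195 over 2800 bp, against 1038, 813 and 634 in PHILO and 990 and 1025 in regular libraries. As listed, the 3 PHILO libraries do not sum to the pool, which at JAZ11 held fewer reads in a wider interval with a larger total. Scaled by totals, the pool held 208.6 reads per kb at JAZ11. The regular libraries held 230.2 and 249.8 over the same 1200 bp, and the PHILO libraries more. A sum of these 5 libraries as listed would not lie below all of them. Which libraries were merged was not settled here, and the pooled H3K9ac values are given as the list holds them.

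The next comparison asked how H3K9ac changed after 2 h of JA. The lists hold domains in which one pool exceeded the other, so there is no replicate error, and the intervals below cover counting error only. JAZ3 and JAZ12 had a gain in both experiments and JAZ4 and JAZ11 in neither. Gains were listed at 13.1% of all genes in the large-scale experiment, at 21.1% in the time course and in both at 7.22%.

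At JAZ3 the large-scale experiment counted 840 reads after JA and 612 without, a log2 ratio of 0.53 (95% exact counting interval 0.38 to 0.69). The time course counted 911 and 673, a log2 ratio of 0.45 (0.31 to 0.60). The 2 intervals overlapped. Both gains began 94 bp inside the gene, at the left edge of the H3K4me3 domain, and covered 71.9% and 83.9% of the body. They were above 83.7% and 84.6% of all listed gains.

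At JAZ12 the large-scale experiment counted 1112 reads after JA and 990 without, a log2 ratio of 0.24 (0.12 to 0.37). The time course counted 1048 and 909, a log2 ratio of 0.22 (0.09 to 0.35). The gain of JAZ12 was smaller than that of JAZ3 in both experiments. The intervals of the 2 genes did not overlap in the large-scale experiment and overlapped in the time course. As in untreated seedlings, the JAZ12 rows also covered 1569 bp and 969 bp of AT5G20890, so the gain was measured over the shared promoter region and not over JAZ12 alone.

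Losses are listed here for the time course alone. None was at any of the 4 genes, beside 16.3% of all genes with a loss in the time course. JAZ11 had H3K9ac in every untreated library but no gain in either experiment and no loss in the time course. For domains of 800 to 1200 bp, the width class of JAZ11, the smallest listed gain was 0.15 (log2, 807 rows) in the large-scale experiment and 0.10 (1243 rows) in the time course, and the smallest listed loss was 0.13. The medians were 0.29, 0.25 and 0.28, and the limit that held for JAZ11 itself was not determined. A change of JAZ11 below what these lists hold was not detectable, and its reads after JA were not analysed here. JAZ4 lacked both an untreated domain and a gain: the nearest gain of the large-scale experiment ended 19189 bp upstream of its start.

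Among the other JAZ genes 9 of 9 had a gain in both experiments. Their log2 ratios ran from 0.37 at JAZ1 to 1.56 at JAZ8 (median 0.67) in the large-scale experiment and from 0.23 at JAZ1 to 1.06 at JAZ9 (median 0.62) in the time course. Each ratio was taken over a row of its own width. Widths ran from 1000 bp (JAZ7) to 9400 bp (JAZ1) in the large-scale experiment. In the time course they ran from 600 bp (JAZ8) to 7600 bp (JAZ2), and what width adds to the order was not tested. JAZ12 had the lowest value of the 11 JAZ genes with a gain in both experiments, beside the interval of JAZ1 that overlapped it in each. JAZ3 stood in the lower part of the order, with 6 JAZ genes above it in each experiment, but its place is not resolved. Its large-scale interval held the values of JAZ5, JAZ10 and JAZ13. Its time course interval overlapped those of JAZ6, JAZ8 and JAZ13, which also read higher. JAZ9, the nearest relative of JAZ3 and JAZ4 among the other JAZ genes, had 1.25 and 1.06. Of the 10 partner genes 4 had a gain in the large-scale experiment, from 0.24 at MYC4 to 0.71 at MYC2, and 7 in the time course, from 0.09 at MYC3 to 0.45 at MYC2, although 4 of these 7 had counting intervals that include 0. TPL, MYC4 and MED25 had a loss in the time course, from 0.11 at MYC4 to 0.20 at MED25. For 1 of these 3, TPL, the counting interval includes 0 (-0.02 to 0.28). MYC4 thus had rows in both directions, and the interval of its time course gain includes 0.

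**Figure D4:**
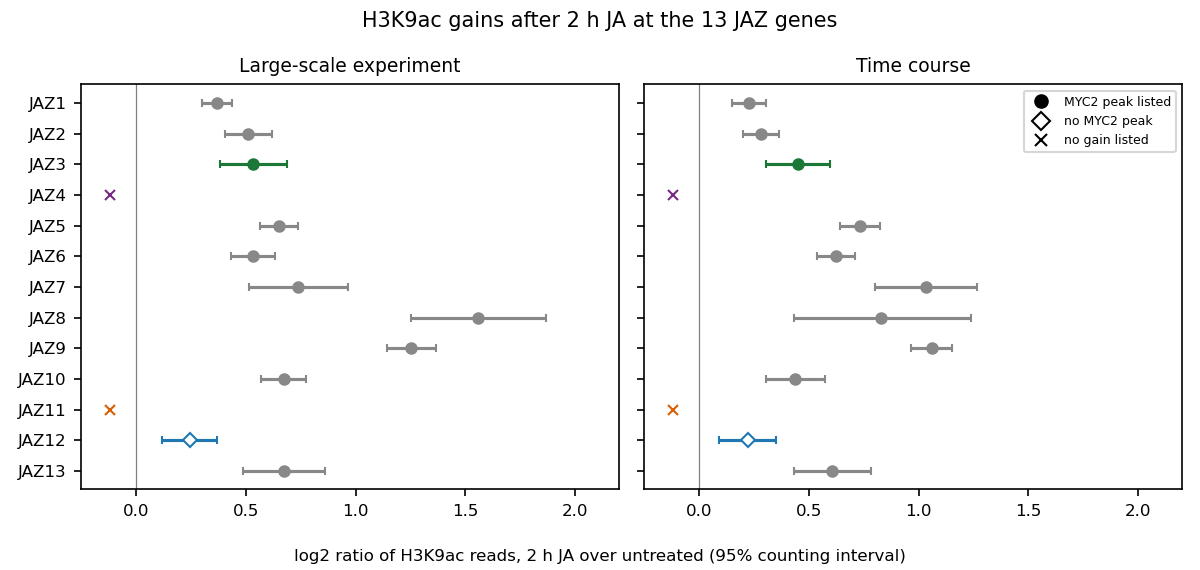
Log2 ratio of H3K9ac reads after 2 h of JA over untreated (x axis) at the 13 JAZ genes (y axis), as points with 95% counting intervals, in the large-scale experiment (left) and the time course (right). Filled circles have a MYC2 peak, the open diamond has none, and crosses have no listed gain. JAZ3 reads 0.53 and 0.45, JAZ12 reads 0.24 and 0.22, and JAZ4 and JAZ11 have crosses.

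MYC2 peaks were looked up last, to see whether the factor that JAZ proteins repress was listed at the genes. JAZ3 had 2 peaks, and JAZ4, JAZ11 and JAZ12 had none, beside 12.5% of all genes with a peak in the window. The stronger JAZ3 peak, chr3:6119248-6119919, had its summit 143 bp before the gene start, with a fold enrichment of 2.33 and a −log10 q of 25.0. It was 672 bp wide, wider than 96.4% of the 3464 peaks, and its −log10 q was higher than in 91.5% of them, while its fold was higher than in 32.0%. The weaker peak, chr3:6118408-6118704, had its summit 1153 bp upstream, with a fold of 2.16 and a −log10 q of 4.24, higher than in 17.6% of peaks. It lay between the upstream H3K27me3 domain and the start of the gene.

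The sequence at the 2 summits differed. Within 50 bp of the strong summit there were 1 CACGTG, centred 6 bp from the summit on its gene side, and 1 CACGTT, centred 9 bp away on the other side. They are the neighbouring capitals in the middle of the JAZ3 line above. The other CACGTG was centred 64 bp from the summit and began 82 bp before the gene start. The weaker summit is shown for contrast, chr3:6118504-6118604 on the plus strand, and holds neither motif.
JAZ3 upstream summit: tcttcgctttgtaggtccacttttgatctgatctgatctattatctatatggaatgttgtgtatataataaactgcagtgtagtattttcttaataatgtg
Over all 3464 summits CACGTG was present within 50 bp of 27.3% and CACGTG or CACGTT of 44.9%. The strong summit lay 237 bp before the left edge of both JA gains, and the peak overlapped the large-scale gain by 119 bp.

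Of all genes with a MYC2 peak 24.6% had a gain in both experiments, and of those without one 4.74%. The 10 JAZ genes with a peak all had such a gain. Of the 3 JAZ genes without a peak, JAZ12 had a gain in both and JAZ4 and JAZ11 in neither. The other 9 JAZ genes had 1 to 4 peaks each (median 2.0), and 4 of the 10 partner genes had at least 1.

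Genes with the profile most like each member were sought over 6 log2 values, those of the 4 marks and of both JA experiments. No row counted as 0, and a time course loss without a gain counted as negative. Each value was divided by its SD over all protein-coding genes, and the straight-line distance was the measure. For JAZ3 they were AT4G30540, AT3G18570 and AT5G61880, at distances of 0.85 to 0.94, of which AT4G30540 had a MYC2 peak. For JAZ11 they were RABG3A, ALDH6B2 and SPP1, at 0.026 to 0.047. For JAZ12 they were AT5G20170 and AT5G20180, which share their domains, at 0.17, and SPY at 0.20, and the first 2 had a MYC2 peak, which JAZ12 had not. For JAZ4, with H3K27me3 as its only value, the nearest genes were AT1G19390, AT2G30090 and AT5G40290, within 0.0010 or less, of which AT2G30090 had a MYC2 peak, which JAZ4 had not.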

How the data were processed

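The members and gene lists were chosen with earlier results of these data known. Reads had been mapped by the authors to TAIR10 (Bowtie2 2.4.1), and domains were called in 200 bp bins by epic2 0.0.52 and peaks by MACS2 2.2.7.1. Deposited domain lists give raw read counts of both sides per domain and the authors' log2 fold, scaled by library totals, from which the ratio of totals was recovered. The deposited MYC2 list gives fold enrichment and −log10 q. Lists hold domains past an FDR of 0.05, so a missing row is not a value of 0. Deposited p-values were not used. Over the 9 lists called against IgG (5 libraries and 4 pools), 23407 of 23407 intervals found in more than 1 list had equal control counts. The domains of the 5 library lists held 8986137 to 13807286 counts in all.

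Where several domains overlapped a window, that with the longest overlap stood for the gene. Genes with a domain in all 5 lists (14040 distinct domains) were tested with edgeR 4.0.16 (quasi-likelihood, offset of log width and TMM-scaled library total, Benjamini-Hochberg at 0.05) in R 4.3.3. On simulated counts for this comparison, with 200 domains changed 1.5-fold, 96.5% of these were recovered. The simulated spread was set by hand and no shift was shared by all domains, so this share need not hold for the real libraries. JA ratios carry exact binomial (Clopper-Pearson) 95% intervals, for counting error only. DESeq2 1.42.0, limma 3.58.1 and other windows and thresholds were alternatives. Named genes were the 4 members, with the other JAZ and partner genes as counts and ranges and 3 nearest profiles a member. No domain (0 in each list) ran past a chromosome end of the reference by more than 1 bin. Protein sequences were not analysed here, and the sequence upstream of JAZ4 is not reported here.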

Additional observations from a re-analysis of the deposited data

How the results depend on the processing

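For PHILO against regular ChIP-seq, the count of 63 called domains (2131 at an unadjusted p under 0.05) depended on the setting. With edgeR it was 0 without any 1 of the 5 libraries (range 0 to 0, with 1379 to 2626 at an unadjusted p under 0.05), 0 with the replicate number as a block (1570 unadjusted), 18 with the gene body alone (10 higher and 8 lower, against 22 and 41) and 11706 with library totals (11672 and 34). DESeq2 called 875 (484 and 391) and limma 58 (21 and 37). The replicate numbers did not pair the libraries (correlations of deviations -0.025 to 0.025), and the block changed no call of the 3 genes. Without 1 library each, log2 differences ranged from -0.24 to -0.04 (JAZ3), 0.10 to 0.16 (JAZ11) and 0.03 to 0.10 (JAZ12). Library totals keep the shift that most domains shared. With them JAZ3 reversed to 0.39, and JAZ3, JAZ11 (0.66) and JAZ12 (0.60) all passed the threshold. The gene body alone, 1 kb upstream or a −log10 q of at least 5 left 1 of the 2 JAZ3 peaks. CACGTG matches at the JAZ3 summits rose from 1 to 2 within 100 bp, and to 2 when CACGTT was counted as well. The other alternatives, 19 for counts and 46 for single genes, stayed within 1.5 times or on the same side. Those for the JA lists are included but could not differ, so they are no check. JAZ3 and JAZ12 each had 1 gain row a list, which overlapped the body, and no member had a loss in the widest window. The planned search for protein motifs was not run. Counting error limits the JA ratios, and no replicate error could be given for them.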
